A study of Mus musculus with 12 samples.

Results

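The genes described here encode the collagens, the laminin chains and the proteins that join them in basement membranes, with fibronectin, the small leucine-rich proteoglycans biglycan and decorin, and the enzymes that hydroxylate collagen. They were taken by symbol from a table of 55401 gene identifiers: every protein-coding gene with a symbol of the form Col or Lam followed by a chain number, and 13 genes by name (Nid1, Nid2, Hspg2, Agrn, Fn1, Bgn, Dcn, P4ha1 to P4ha3 and Plod1 to Plod3). This gave 68 genes, of which 44 were collagens and 11 laminin chains. RNA was sequenced from 12 primary cultures of the subventricular zone (SVZ), the germinal layer beside the lateral ventricles, of CD1 mice. Postnatal NSC were neural stem cells of pups aged P0 to P2 and adult NSC those of mice aged 2 months, both grown as floating neurospheres for 6 to 7 days in serum-free medium with 2% B27, FGF at 10 ng/mL, EGF at 20 ng/mL and heparin at 2 ug/mL. Postnatal OPC were oligodendrocyte precursor cells made by dissociating primary neurospheres and plating the cells as a monolayer for 2 days with 2% B27, FGF at 10 ng/mL and PDGF-AA at 10 ng/mL. Each group had 4 libraries, which the labels describe as coming from independent litters. Cell type, culture form, days in the sampled culture and growth factors all differ between OPC and NSC, and heparin is listed for NSC only. OPC and adult NSC differ in age as well. The parts of these in a difference cannot be told apart.

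Basement membranes are thin sheets of matrix built on a polymer of laminins, each a trimer of an alpha, a beta and a gamma chain, and on a network of collagen IV. Nidogens and the heparan sulfate proteoglycans perlecan and agrin link the networks to each other and to cell surface receptors. In the SVZ such sheets surround blood vessels and also form fractones, branched deposits that touch stem cells and can hold heparin-binding growth factors such as FGF. The fibrillar collagens form fibrils instead, on which fibril-associated collagens sit, and every collagen chain is hydroxylated by prolyl and lysyl hydroxylases before its triple helix is stable.

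The summed counts of a library ranged from 38928989 to 54801726 (postnatal NSC), from 16756231 to 20064043 (adult NSC) and from 17226501 to 23651396 (OPC). A level in CPM is a gene's count scaled to the TMM-normalised library total, listed for libraries 1 to 4 in that order. Markers of the labelled types were present: the summed level of 8 OPC markers was 4789 to 7984 CPM in postnatal OPC and 2178 to 3451 CPM in both NSC groups, while that of 7 neural stem cell markers was 5237 to 8742 CPM in OPC, overlapping the 7460 to 8696 CPM of postnatal NSC and under the 9618 to 10260 CPM of adult NSC. Postnatal NSC 3 and postnatal OPC 2 stood apart, with a mean of 4.87 and 4.57 log2 CPM over 24 genes of DNA replication against 5.82 to 6.58 in the others. Some results of members that rest on them are given with and without them. No value without them is given for the lists of related genes at the end. The groups also differed in the mix of sexes (Ddx3y, a Y-linked gene, was at or under 0.0702 CPM in postnatal NSC 2 and 3 and adult NSC 1, and above it in all other libraries), which bears on the X-linked members Col4a5, Col4a6 and Bgn. Postnatal NSC 4 and postnatal OPC 1 held RNA marks of both sexes. Their Ddx3y was at 16.1 and 19.6 CPM, and Xist, the RNA of the inactive X chromosome, at 544 and 987 CPM.

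Of all counts the module took 0.253% to 0.297% (postnatal NSC), 0.248% to 0.295% (adult NSC) and 0.116% to 0.134% (OPC). Of the 68 genes, 51 passed the filter on low counts and were tested, in 1 fit of 16135 genes. The other 17 did not pass it: Col3a1, Col4a4, Col6a2, Col6a4, Col6a5, Col6a6, Col8a1, Col8a2, Col10a1, Col13a1, Col15a1, Col17a1, Col24a1, Lama3, Lamb3, Lamc3 and Dcn. Their highest group mean was 0.731 CPM, that of Col6a2 in postnatal NSC, while the lowest such mean among tested members was 0.510 CPM. Col10a1 had no count in any library, and a count of 0 allows up to 3 counts, or 0.0547 to 0.179 CPM depending on the library.

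In OPC against postnatal NSC most of the basement membrane set was lower: the nidogen, perlecan, agrin, collagen XVIII and fibronectin genes fell, as did the tested laminin and collagen IV genes other than Lama4 and Col4a3, which were not called. By edgeR's quasi-likelihood test, 39 of 51 tested members were lower and 1, Col19a1, was higher, where 22.7% and 22.4% of all genes tested were called lower and higher. The median log2 fold change was −1.43 over the 51 members and −0.01 over all genes tested. In bulk RNA, fewer cells that express a gene and less of its RNA per cell cannot be told apart.

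Between the ages members were called in both directions, as were all genes tested. Adult NSC against postnatal NSC had 10 members higher, among them Lamc1, Hspg2, Col18a1, Col5a1, Col5a3 and Col25a1, and 19 lower, among them the collagen II and IX genes, Col11a2, the agrin gene Agrn and the collagen IV pair Col4a1 and Col4a2. Of all genes tested 25.2% were called higher and 27.9% lower, so the share of members called higher (19.6%) was under and that called lower (37.3%) above these values. The members' median was −0.25, against −0.03 over all genes. In postnatal OPC against adult NSC, 12 members were higher and 29 lower (26.3% and 24.7% of all genes), with a median of −1.05 against 0.01. The 3 comparisons share their groups, so that each is given by its own values.

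**Figure D1:**
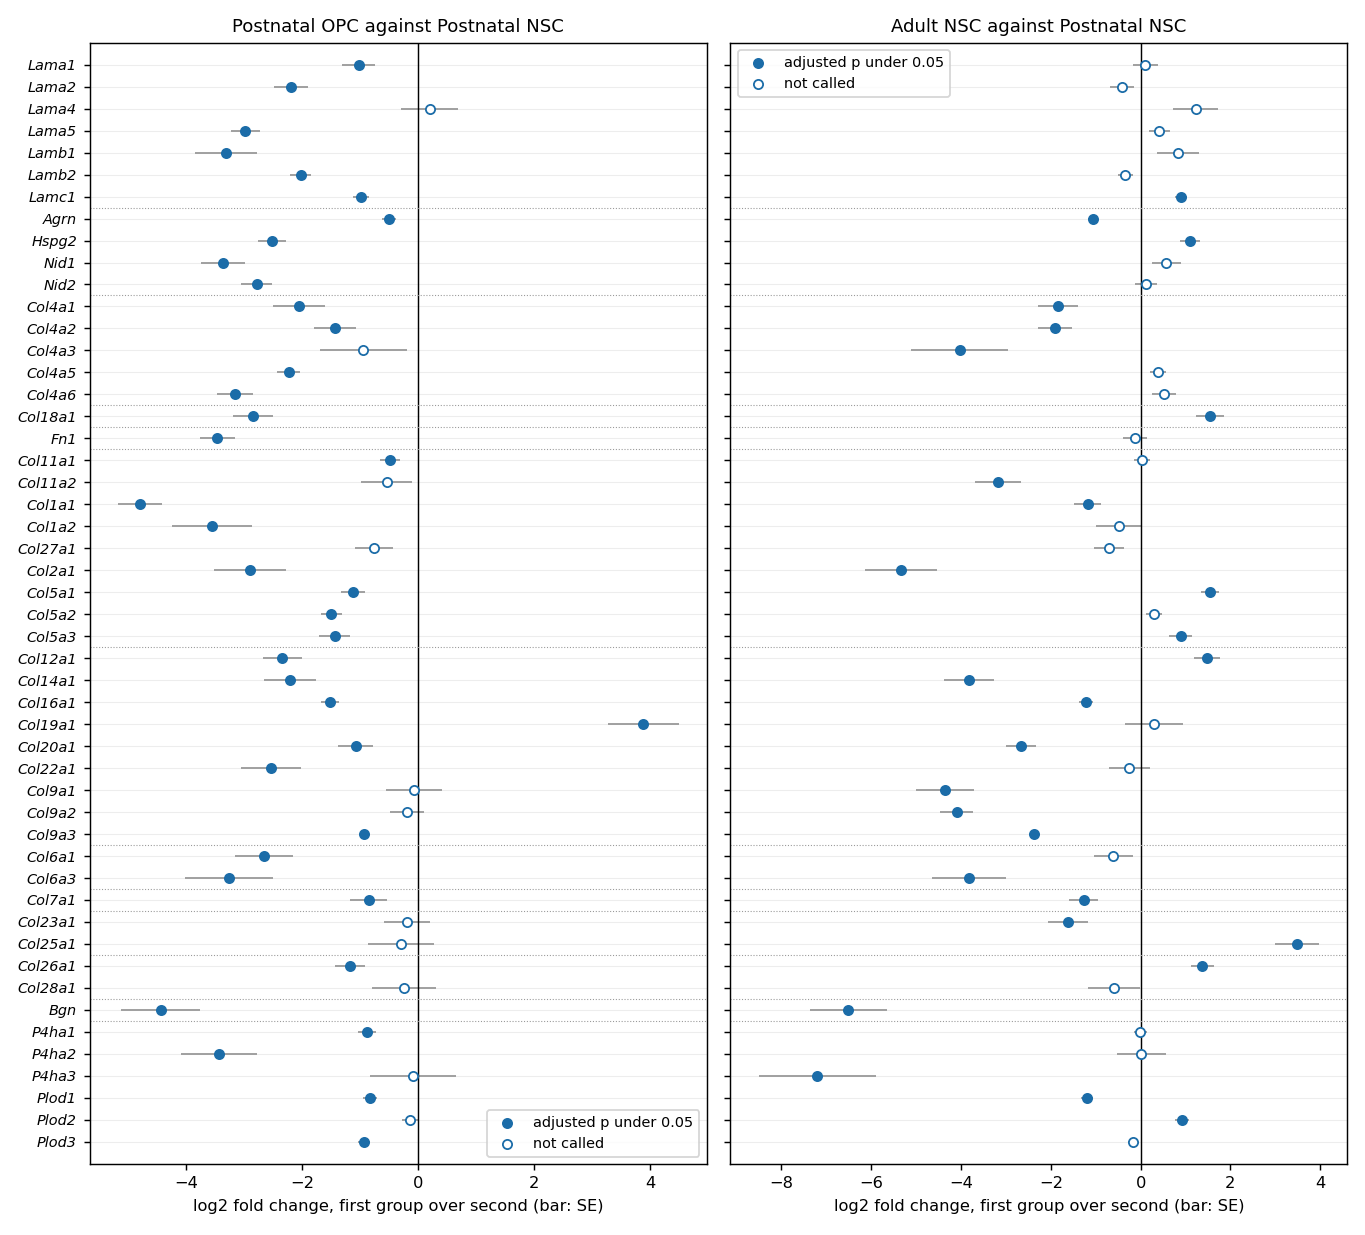
Log2 fold change (x axis) of 50 of the 51 tested members (y axis, grouped by role) in postnatal OPC against postnatal NSC (left) and in adult NSC against postnatal NSC (right), from the fit of all 12 libraries; bars are the SE, filled points passed at an adjusted p under 0.05. On the left 38 filled points lie below 0 and only Col19a1 above it, while on the right 9 lie above and 19 below.

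The promoter sequences of 7 members are shown because their genes stand for the patterns that follow: Lama5, Hspg2 and Col18a1 for the basement membrane genes that fell in OPC, Col4a5 and Col4a6 for a collagen IV pair read outward from a shared stretch, and Col9a1 and Bgn for genes that fell in adult NSC. Each was taken from RefSeq on GRCm38.p6, 5′ to 3′ on the gene's strand, and ends before the first annotated exon base. Lama5 lies at chr2:180225905-180226109 (minus strand), Hspg2 at chr4:137468553-137468750 (plus), Col18a1 at chr10:77166549-77166780 (minus), Col4a5 at chrX:141475169-141475369 (plus), Col4a6 at chrX:141474096-141474326 (minus), Col9a1 at chr1:24177360-24177588 (plus) and Bgn at chrX:73483351-73483600 (plus). Capitals mark GGGCGG, the core of the GC box, and CCAAT, each on either strand (so also CCGCCC, and for the other motif ATTGG). The letters TATAAA were also looked for and are in none of the 7.
Lama5: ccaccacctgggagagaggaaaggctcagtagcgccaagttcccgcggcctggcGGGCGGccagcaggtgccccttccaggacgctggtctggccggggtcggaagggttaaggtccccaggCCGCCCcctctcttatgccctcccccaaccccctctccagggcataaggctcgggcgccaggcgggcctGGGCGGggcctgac
Hspg2: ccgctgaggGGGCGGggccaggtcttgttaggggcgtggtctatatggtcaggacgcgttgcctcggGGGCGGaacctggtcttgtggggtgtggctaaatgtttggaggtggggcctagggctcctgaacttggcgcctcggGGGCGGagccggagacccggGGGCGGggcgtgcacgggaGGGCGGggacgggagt
Col18a1: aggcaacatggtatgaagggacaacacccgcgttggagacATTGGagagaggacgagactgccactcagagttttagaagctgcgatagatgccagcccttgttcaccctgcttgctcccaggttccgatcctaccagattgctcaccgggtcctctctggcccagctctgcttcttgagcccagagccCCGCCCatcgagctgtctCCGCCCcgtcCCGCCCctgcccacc
Col4a5: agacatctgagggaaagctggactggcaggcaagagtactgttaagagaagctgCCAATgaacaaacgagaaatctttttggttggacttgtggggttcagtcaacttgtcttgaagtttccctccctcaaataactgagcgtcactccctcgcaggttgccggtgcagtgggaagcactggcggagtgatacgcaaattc
Col4a6: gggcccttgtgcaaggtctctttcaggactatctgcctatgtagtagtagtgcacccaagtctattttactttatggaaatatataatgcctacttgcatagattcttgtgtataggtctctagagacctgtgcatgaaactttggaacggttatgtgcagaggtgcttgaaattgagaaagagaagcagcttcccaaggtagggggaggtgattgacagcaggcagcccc
Col9a1: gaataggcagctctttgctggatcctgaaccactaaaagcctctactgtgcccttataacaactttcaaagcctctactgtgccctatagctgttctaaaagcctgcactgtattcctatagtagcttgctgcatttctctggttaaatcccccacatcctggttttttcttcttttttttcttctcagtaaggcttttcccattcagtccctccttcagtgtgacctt
Bgn: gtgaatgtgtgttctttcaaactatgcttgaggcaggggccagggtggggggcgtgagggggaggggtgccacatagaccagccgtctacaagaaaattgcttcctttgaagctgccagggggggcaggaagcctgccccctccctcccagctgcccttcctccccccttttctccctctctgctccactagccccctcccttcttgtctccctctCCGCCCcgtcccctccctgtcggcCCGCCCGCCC

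The stretches before Lama5, Col18a1 and Bgn hold 3 GC box matches each, overlapping matches counted, and that before Hspg2 holds 5. Col4a5, Col4a6 and Col9a1 have none, and the stretch before Col9a1 has no CpG dinucleotide, where that before Hspg2 has 17. Among the 49 members with an entry in the promoter table, 31 (63.3%) had GGGCGG in the 250 bases before the start, against 32.9% of all 27025 genes in the table and 42.7% of its 17492 protein-coding genes. The shares for CCAAT (30.6% of members, 36.3% of protein-coding genes) and TATAAA (12.2% and 12.4%) lay closer to each other. These matches describe the letters only. Another collagen IV pair, Col4a1 and Col4a2 on chromosome 8, starts head to head, and the annotated genes overlap by 22 bases (chr8:11312805-11312826, written on the plus strand), a stretch that holds the start of both. It also holds the letters GGGCGG, which are not put in capitals there.
Col4a1 and Col4a2: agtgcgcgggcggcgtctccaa

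Of the 7 laminin chains described here, 6 were lower in OPC than in postnatal NSC (22.7% of all genes were) while Lama4 was not called. Lama5 (chromosome 2, 180176373 to 180225859), an alpha chain of vascular and epithelial basement membranes, was at 202, 173, 102 and 181 CPM (postnatal NSC), 204, 222, 191 and 264 CPM (adult NSC) and 20.1, 12.9, 28.01 and 22.7 CPM (postnatal OPC). The OPC libraries lay under all others, and the log2 fold change against postnatal NSC was −2.98 ± 0.25 (adjusted p = 5.52e-06). Both ages of NSC overlapped (0.42 ± 0.23, adjusted p = 0.141). Lamb1, a beta chain, was at 28.3, 12.9, 6.31 and 37.5 CPM (postnatal NSC), 37.5, 39.4, 34.5 and 39.3 CPM (adult NSC) and 2.66, 0.612, 2.88 and 2.55 CPM (postnatal OPC). It fell in OPC (log2 fold change −3.31 ± 0.54, adjusted p = 0.000421), and postnatal NSC 3 was the lowest NSC library. Adult and postnatal NSC differed by 0.83 ± 0.47 with overlapping libraries, a difference that passed without postnatal NSC 4 (1.20). Lamb2, the other beta chain tested, was at 124, 139.5, 131 and 99.8 CPM (postnatal NSC), 101, 90.7, 92.99 and 106 CPM (adult NSC) and 34.4, 21.5, 40.98 and 25.1 CPM (postnatal OPC), with OPC below every NSC library (−2.02 ± 0.18, adjusted p = 7.56e-06). Its difference between the ages (−0.34 ± 0.17) did not pass, but passed without postnatal NSC 4 (−0.47), without postnatal OPC 2 (−0.38) and in a fit of both NSC groups alone (−0.35).

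Lamc1 (chromosome 1, 153218922 to 153332786), the gamma chain shared by most laminins, was highest in adult NSC. Its level was 274, 214, 166 and 267 CPM (postnatal NSC), 439.6, 426, 410.5 and 440.5 CPM (adult NSC) and 114, 101, 122 and 129 CPM (postnatal OPC), and the 3 groups did not overlap. It rose in adult against postnatal NSC (log2 fold change 0.90 ± 0.14, adjusted p = 0.00031) and fell in OPC (log2 fold change −0.98 ± 0.14, adjusted p = 0.00017). Lama1, an alpha chain of the embryonic and pial basement membrane, was at 40.4, 27.1, 15.98 and 26.5 CPM (postnatal NSC), 28.9, 33.4, 23.1 and 32.9 CPM (adult NSC) and 13.4, 7.79, 15.7 and 17.3 CPM (postnatal OPC) and fell in OPC (log2 fold change −1.02 ± 0.28, adjusted p = 0.01), although postnatal NSC 3 lay among the OPC libraries. Lama2, the alpha chain lost in a congenital muscular dystrophy, was at 3.502, 3.53, 4.66 and 2.73 CPM (postnatal NSC), 2.73, 3.27, 1.63 and 3.15 CPM (adult NSC) and 0.581, 0.775, 1.15 and 0.672 CPM (postnatal OPC), and its OPC libraries were all below the others (−2.19 ± 0.29, adjusted p = 0.000113).

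Lama4, an alpha chain of blood vessel walls, was called in no comparison. It was at 16.1, 8.09, 4.68 and 14.4 CPM (postnatal NSC), 32.03, 21.4, 26.2 and 21.4 CPM (adult NSC) and 7.94, 3.302, 21.04 and 17.6 CPM (postnatal OPC), from under to above the postnatal NSC values, and did not differ from them by the test (0.20 ± 0.49, adjusted p = 0.766). Each adult library exceeded each postnatal NSC library (1.223 ± 0.49, adjusted p = 0.0522). That difference passed in DESeq2, with no filter on low counts (1.19), in a fit of both NSC groups alone (1.21), without both libraries with few DNA replication transcripts (0.97), and without postnatal NSC 1 (1.45), postnatal OPC 2 (1.19) or postnatal OPC 3 (1.23). The difference of OPC from adult NSC (−1.02 ± 0.49) passed only without postnatal OPC 3 (−1.40).

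The linkers of laminin and collagen IV were 4 of 4 lower in OPC than in postnatal NSC (22.7% of all genes were). Nid1 (chromosome 13, 13437551 to 13512269), which encodes the nidogen that binds laminin gamma chains and collagen IV, was at 42.2, 21.6, 10.3 and 19.7 CPM (postnatal NSC), 33.9, 44.1, 25.7 and 35.7 CPM (adult NSC) and 1.79, 2.49, 2.77 and 2.11 CPM (postnatal OPC). Its OPC libraries were all below the lowest NSC library, with a log2 fold change of −3.36 ± 0.38 (adjusted p = 3.41e-05). The ages overlapped (0.57 ± 0.33), and adult NSC passed as higher without postnatal NSC 1, the highest postnatal library (0.99). Nid2, the related nidogen, had group means of 16.7 ± 2.93 CPM (postnatal NSC), 18.3 ± 0.548 CPM (adult NSC) and 2.44 ± 1.01 CPM (postnatal OPC) (SD, n = 4 each), and its log2 fold change in OPC against postnatal NSC was −2.78 ± 0.27 (adjusted p = 1.39e-05). Hspg2 (chromosome 4, 137468769 to 137570630) encodes perlecan, a heparan sulfate proteoglycan that binds FGF. It was at 101, 62.1, 44.05 and 78.8 CPM (postnatal NSC), 154, 151, 123 and 183 CPM (adult NSC) and 11.9, 9.17, 14.3 and 14.7 CPM (postnatal OPC), so that the groups fell into 3 separate ranges with adult NSC highest. It rose in adult NSC (log2 fold change 1.09 ± 0.23, adjusted p = 0.00184) and fell in OPC (log2 fold change −2.52 ± 0.24, adjusted p = 1.26e-05).

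Agrn (chromosome 4, 156165290 to 156197488) encodes agrin, the proteoglycan that clusters acetylcholine receptors at the nerve-muscle synapse, and it kept a high level in OPC. Its level was 604, 622, 720.5 and 479.6 CPM (postnatal NSC), 283, 283, 293 and 308 CPM (adult NSC) and 450.1, 476, 401 and 386 CPM (postnatal OPC). Here the ranges were again separate, but with adult NSC lowest: agrin fell in adult NSC (log2 fold change −1.05 ± 0.12, adjusted p = 3.28e-05) and in OPC (log2 fold change −0.50 ± 0.11, adjusted p = 0.00367), and was higher in OPC than in adult NSC (0.55 ± 0.12, adjusted p = 0.00163). Fn1 (chromosome 1, 71585520 to 71653200) encodes fibronectin, the integrin ligand of provisional matrix. It was at 62.04, 75.6, 42.9 and 44.8 CPM (postnatal NSC), 48.2, 52.5, 50.7 and 53.97 CPM (adult NSC) and 5.62, 2.12, 5.82 and 7.06 CPM (postnatal OPC), with similar NSC ranges (−0.14 ± 0.27, adjusted p = 0.687) and all OPC libraries below them (−3.46 ± 0.30, adjusted p = 6.91e-06).

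**Figure D2:**
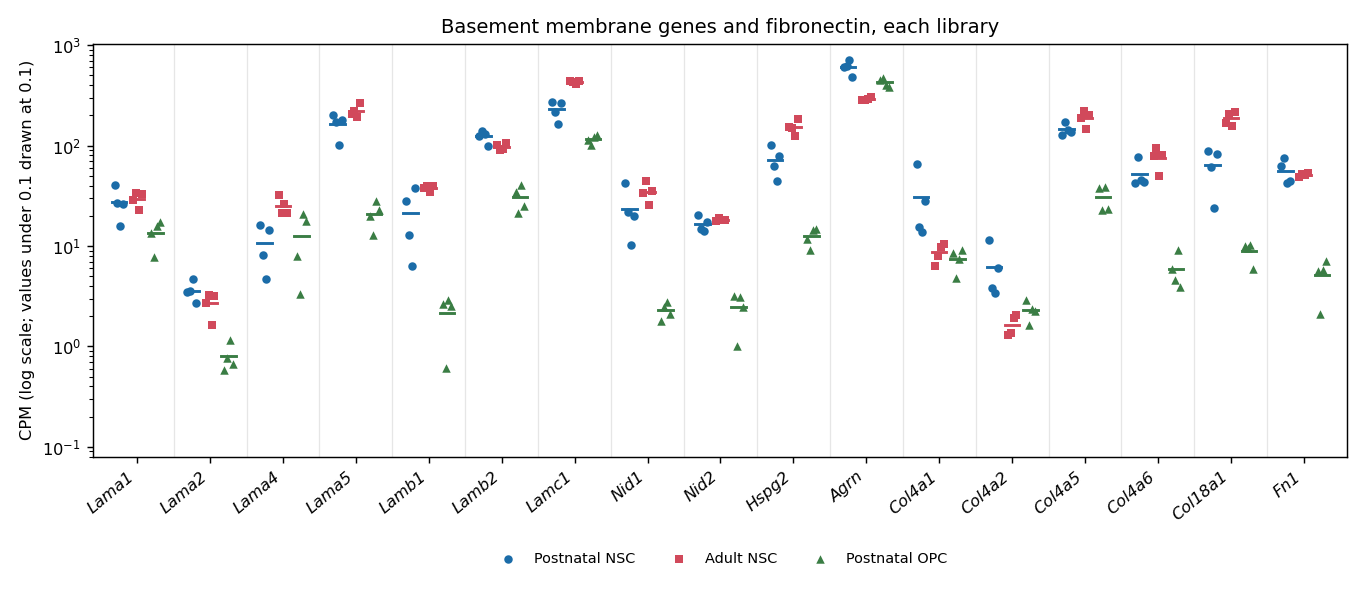
CPM (y axis, log scale) of 16 basement membrane genes and fibronectin (x axis) in each of the 4 libraries of postnatal NSC (circles), adult NSC (squares) and postnatal OPC (triangles), with a line at the group mean. The triangles of Lama5, Nid1, Hspg2, Col4a5, Col4a6, Col18a1 and Fn1 lie below all other points, while those of Agrn lie between the groups of NSC.

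Collagen IV is made of 6 chains whose genes lie in 3 head-to-head pairs, and the pairs differed. In the X-linked pair, Col4a5 (141475385 to 141689234) was at 128, 170.2, 145 and 138 CPM (postnatal NSC), 189, 219, 148 and 201 CPM (adult NSC) and 38.1, 23.1, 39.1 and 23.6 CPM (postnatal OPC). Col4a6 (141165403 to 141474076), whose start lies 1308 bases from that of Col4a5, was at 42.6, 76.7, 45.9 and 43.8 CPM (postnatal NSC), 78.4, 93.7, 49.4 and 80.2 CPM (adult NSC) and 5.95, 4.57, 9.22 and 3.89 CPM (postnatal OPC). Both had all OPC libraries under all NSC libraries, with log2 fold changes against postnatal NSC of −2.23 ± 0.19 and −3.15 ± 0.30 (adjusted p = 6.32e-06 and 1.22e-05). Between the ages neither passed (0.38 ± 0.18 and 0.53 ± 0.27). Col4a5 passed as higher in adult NSC in a fit of both NSC groups alone (0.37), and Col4a6 without postnatal NSC 2 (0.73), the highest of its group. With CPM divided by exon length in kb, the ratio of Col4a5 to Col4a6 was 2.63 to 3.74 (postnatal NSC), 2.77 to 3.56 (adult NSC) and 5.03 to 7.59 (OPC). The pair thus did not keep a fixed ratio across the cultures.

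Col4a1 and Col4a2, the chains found in nearly all basement membranes, were lower in both other groups than in postnatal NSC. Col4a1 was at 66.1, 15.5, 13.9 and 28.4 CPM (postnatal NSC), 6.33, 7.95, 9.85 and 10.49 CPM (adult NSC) and 8.57, 4.85, 7.38 and 9.08 CPM (postnatal OPC). Postnatal NSC 1 was more than 2 times as high as any other library. Col4a1 fell in adult NSC (log2 fold change −1.84 ± 0.44, adjusted p = 0.0042) and in OPC (log2 fold change −2.05 ± 0.44, adjusted p = 0.00259). Without postnatal NSC 1 these were −1.18 and −1.39. Col4a2 was at 11.4, 3.86, 3.41 and 6.06 CPM (postnatal NSC), 1.31, 1.351, 1.91 and 2.04 CPM (adult NSC) and 2.904, 1.63, 2.36 and 2.26 CPM (postnatal OPC), with postnatal NSC 1 again highest. Its log2 fold changes against postnatal NSC were −1.90 ± 0.38 in adult NSC and −1.43 ± 0.36 in OPC (adjusted p = 0.00133 and 0.00672). OPC and adult NSC overlapped for both genes. The ratio of Col4a1 to Col4a2, also per kb of exon, was 3.56 to 5.15, 4.29 to 5.22 and 2.62 to 3.57 in postnatal NSC, adult NSC and OPC.

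Pericytes and smooth muscle make much collagen IV in vessels, so their markers are given beside this pair. Their summed level (11 genes, 3 tested) was 51.0 to 107 CPM (postnatal NSC), 21.2 to 53.3 CPM (adult NSC) and 6.05 to 10.4 CPM (OPC), of which Acta2 had a mean of 46.7, 24.2 and 2.31 CPM, while Kcnj8, Abcc9, Anpep, Vtn, Myh11 and Des stayed under 1 CPM in every library. For endothelial markers (11 genes) the sums were 8.26 to 18.5, 15.5 to 17.5 and 3.80 to 5.63 CPM, with 8 of the 11 under 1 CPM everywhere and Sox17 at 0 counts. For leptomeningeal and fibroblast markers they were 15.6 to 26.1, 36.2 to 43.2 and 12.4 to 18.3 CPM, mostly Prrx1, with Tbx18 and Slc22a6 at 0 counts. The sums of 5 ependymal markers, mostly Foxj1, were 35.9 to 48.6, 21.6 to 23.7 and 9.09 to 16.3 CPM in the same order of groups. The 3 that were tested were all lower in OPC than in postnatal NSC (22.7% of all genes were), with a median log2 fold change of −1.70. Of the 3 tested pericyte and smooth muscle markers 2 were also lower (median −4.33). The endothelial and the leptomeningeal list each had 1 of 3 tested markers lower (median −0.53 in each). The 1 tested choroid plexus marker was lower (−0.88), and of 2 tested microglial markers 1 was lower and 1 higher (22.4% of all genes were higher). Choroid plexus markers summed to 6.72 to 11.8, 1.51 to 3.66 and 3.57 to 6.87 CPM, and microglial markers to 16.4 to 39.7, 10.1 to 13.2 and 14.7 to 17.3 CPM. The part of such cells in the values of the matrix genes was not tested.

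Col4a3 and Col4a4, chains of the kidney filter and the inner ear that start 71 bases apart on chromosome 1, were scarce. Col4a3 was at 0.596, 1.23, 1.603 and 0.472 CPM (postnatal NSC), 0.164, 0, 0.0563 and 0 CPM (adult NSC) and 0.194, 1.47, 0.231 and 0.0480 CPM (postnatal OPC). Col4a4, which was not tested, was at 0.447, 0.386, 0.551 and 0.671 CPM (postnatal NSC), 0.491, 0.208, 0.338 and 0.370 CPM (adult NSC) and 0.290, 0.0815, 0.461 and 0.577 CPM (postnatal OPC). Col4a3 fell in adult NSC (log2 fold change −4.03 ± 1.08, adjusted p = 0.00807). This was −5.40 without adult NSC 1 and −4.84 after thinning to equal library totals. In OPC its level rested on 1 library, postnatal OPC 2: with it OPC did not differ from postnatal NSC by the test (−0.94 ± 0.75, adjusted p = 0.325), and without it OPC was lower (−2.66). The higher level of OPC than of adult NSC (3.08 ± 1.17) was 1.40 and not called without postnatal OPC 2. It was not called either without adult NSC 2, 3 or 4 or postnatal NSC 2, and was 4.45 without adult NSC 1.

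Col18a1 (chromosome 10, 77052178 to 77166548) encodes the multiplexin whose cleaved end is endostatin. It was at 88.3, 61.3, 24.02 and 82.6 CPM (postnatal NSC), 166, 207, 156 and 218 CPM (adult NSC) and 9.92, 9.54, 10.3 and 5.86 CPM (postnatal OPC). Adult NSC lay above, and OPC below, every postnatal NSC library, of which postnatal NSC 3 was the lowest. The log2 fold change against postnatal NSC was 1.54 ± 0.32 (adjusted p = 0.00182) in adult NSC. In OPC it was −2.85 ± 0.35 (adjusted p = 5.63e-05). OPC against adult NSC gave −4.39 ± 0.37.

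Collagens II, IX and XI build the thin fibrils of cartilage and the vitreous body. They are described together by that known partnership, a grouping made after their values were seen. In these cultures 5 of the 6 genes were lower in adult NSC than in postnatal NSC (27.9% of all genes were), and Col11a1 was not called. Col9a3 was at 82.3, 80.3, 87.8 and 88.1 CPM (postnatal NSC), 16.8, 15.5, 16.6 and 16.5 CPM (adult NSC) and 43.2, 44.97, 48.7 and 41.7 CPM (postnatal OPC), with the 3 groups fully apart. It fell in adult NSC (log2 fold change −2.37 ± 0.08, adjusted p = 1.87e-09) and in OPC (log2 fold change −0.92 ± 0.07, adjusted p = 3.84e-06). Col9a2 was at 10.3, 11.4, 17 and 8.13 CPM (postnatal NSC), 0.928, 0.675, 0.563 and 0.555 CPM (adult NSC) and 9.68, 16.8, 7.55 and 6.97 CPM (postnatal OPC). Col9a1 (chromosome 1, 24177610 to 24252684) was at 3.95, 4.53, 10.2 and 2.06 CPM (postnatal NSC), 0.273, 0.468, 0.113 and 0.123 CPM (adult NSC) and 3.87, 9.09, 3.63 and 3.07 CPM (postnatal OPC). For both, every adult library was below every other library, with differences from postnatal NSC of −4.09 ± 0.36 and −4.36 ± 0.64 (adjusted p = 7.96e-06 and 0.000212). Postnatal NSC and OPC overlapped and were not called (−0.19 ± 0.29 and −0.07 ± 0.48). Within these 2 groups the libraries with few DNA replication transcripts, postnatal NSC 3 and postnatal OPC 2, were the highest.

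Col11a2 was also lowest in adult NSC. It was at 8.35, 11, 19.3 and 5.96 CPM (postnatal NSC), 1.25, 1.77, 0.675 and 1.23 CPM (adult NSC) and 6.29, 15.4, 4.496 and 4.28 CPM (postnatal OPC), fell in adult NSC (log2 fold change −3.17 ± 0.51, adjusted p = 0.00039), and was higher in OPC than in adult NSC (2.62 ± 0.51, and 2.03 without postnatal OPC 2). OPC and postnatal NSC overlapped (−0.54 ± 0.45, adjusted p = 0.341), and without postnatal OPC 2 the difference passed (−1.18). Col2a1, the chief fibrillar collagen of cartilage, was at 4.07, 5.404, 4.01 and 0.696 CPM (postnatal NSC), 0, 0.208, 0 and 0.123 CPM (adult NSC) and 0.484, 0.652, 0.288 and 0.432 CPM (postnatal OPC), and 2 of the 4 adult libraries had no count. It fell in adult NSC (log2 fold change −5.33 ± 0.80, adjusted p = 0.000242) and in OPC (log2 fold change −2.90 ± 0.62, adjusted p = 0.00245). Without adult NSC 2 the first was −6.37. OPC was higher than adult NSC by 2.43 ± 0.91 (3.46 without adult NSC 2), a call lost without adult NSC 1, 3 or 4, postnatal NSC 1 or 3, postnatal OPC 1, 2 or 4, or both libraries with few DNA replication transcripts.

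Col11a1, the partner chain of Col11a2, had another pattern. It was at 204, 200, 148 and 189 CPM (postnatal NSC), 199.8, 216, 156 and 188 CPM (adult NSC) and 97.6, 180.3, 142 and 111 CPM (postnatal OPC), with overlap between all groups. The ages differed by 0.04 ± 0.18 (adjusted p = 0.87). Its lower level in OPC (−0.48 ± 0.18, adjusted p = 0.0429) was not called in a fit of the 2 groups alone, after adjusting for Y-linked expression, or without adult NSC 1, 2 or 4, postnatal NSC 1, 2 or 4 or postnatal OPC 1, 3 or 4, and that against adult NSC (−0.52 ± 0.18) was not called without adult NSC 1, 2 or 4 or postnatal OPC 1 or 4.

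Collagen V, which limits the width of collagen I fibrils, was higher in adult than in postnatal NSC for 2 of its 3 genes (25.2% of all genes were). Col5a1 (chromosome 2, 27886425 to 28039514) was at 37.1, 38.4, 23.04 and 43.4 CPM (postnatal NSC), 105, 104, 89.8 and 118 CPM (adult NSC) and 16.02, 11.4, 17.1 and 20.7 CPM (postnatal OPC). Its 3 ranges were separate, with log2 fold changes against postnatal NSC of 1.55 ± 0.20 in adult NSC and −1.12 ± 0.20 in OPC (adjusted p = 9.59e-05 and 0.000822). Col5a3 was at 61.4, 57.5, 28.4 and 65.7 CPM (postnatal NSC), 85.02, 103, 92.2 and 116 CPM (adult NSC) and 22.6, 11.5, 24.5 and 20.5 CPM (postnatal OPC), also with separate ranges, and differed by 0.89 ± 0.26 in adult NSC and −1.43 ± 0.27 in OPC (adjusted p = 0.0124 and 0.00101). Col5a2 was at 132, 118, 126 and 137 CPM (postnatal NSC), 169, 159.5, 143 and 162 CPM (adult NSC) and 49.2, 26.6, 57.6 and 48.6 CPM (postnatal OPC) and fell in OPC (log2 fold change −1.497 ± 0.18, adjusted p = 5.19e-05). Each adult library exceeded each postnatal NSC one, but the difference (0.30 ± 0.17, adjusted p = 0.16) passed only in a fit of both NSC groups alone (0.29), without postnatal OPC 2 (0.27), or without that library and postnatal NSC 3 (0.28).

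Collagen I, the main fibrillar collagen of bone and skin, was low. Col1a1 was at 12.1, 11.4, 4.63 and 10.8 CPM (postnatal NSC), 3.82, 4.83, 3.32 and 5.24 CPM (adult NSC) and 0.532, 0.367, 0.288 and 0.192 CPM (postnatal OPC), lower in OPC than in any NSC library (−4.79 ± 0.38, adjusted p = 3.84e-06) and lower in adult than in postnatal NSC (log2 fold change −1.18 ± 0.30, adjusted p = 0.00625). Its partner Col1a2 stayed under 1 CPM in every library and fell in OPC (log2 fold change −3.55 ± 0.69, adjusted p = 0.00138). Without postnatal OPC 4 this was −4.91. Col27a1, a fibrillar collagen of growing cartilage, was at 26.7, 38.4, 42.7 and 39.2 CPM (postnatal NSC), 23.6, 23.9, 17.8 and 24.7 CPM (adult NSC) and 15.4, 43.6, 14.4 and 13.2 CPM (postnatal OPC). Postnatal OPC 2 was above every other OPC library, all adult libraries were below all postnatal NSC libraries, and no comparison passed (−0.76 ± 0.33 in OPC and −0.71 ± 0.34 in adult NSC against postnatal NSC, −0.05 ± 0.34 in OPC against adult NSC). Without postnatal OPC 2 all 3 passed, at −1.38, −0.74 and −0.64.

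Among the 9 fibril-associated collagens, all tested, 6 were lower and 1 was higher in OPC than in postnatal NSC (22.7% and 22.4% of all genes). In adult against postnatal NSC 6 were lower and 1 was higher (27.9% and 25.2% of all genes). Col19a1 was the only member higher in OPC than in postnatal NSC by the test. It was at 0.845, 0.386, 0.0501 and 0.447 CPM (postnatal NSC), 0.491, 0.520, 0.619 and 0.493 CPM (adult NSC) and 5.23, 2.04, 10.03 and 8.55 CPM (postnatal OPC), so that all OPC libraries were above all others, with log2 differences of 3.89 ± 0.61 (adjusted p = 0.00031) from postnatal NSC and 3.59 ± 0.63 from adult NSC (adjusted p = 0.000517). Col19a1 and Col9a1 are neighbours on chromosome 1, pointing at each other with 9205 bases between their ends. Col12a1, found on collagen I fibrils of tendon and skin, was at 5.17, 3.56, 3.06 and 2.93 CPM (postnatal NSC), 10.4, 7.54, 13.6 and 9.44 CPM (adult NSC) and 0.968, 0.734, 0.922 and 0.288 CPM (postnatal OPC). Its 3 groups were separate, with log2 fold changes of 1.47 ± 0.29 in adult NSC and −2.34 ± 0.33 in OPC (adjusted p = 0.00143 and 0.000172).

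Col16a1, a fibril-associated collagen of many tissues, was at 76.2, 119, 89.1 and 84.9 CPM (postnatal NSC), 39.1, 37.3, 37.8 and 44.6 CPM (adult NSC) and 26.8, 32.2, 41.9 and 28.2 CPM (postnatal OPC). It fell in both other groups against postnatal NSC, with log2 fold changes of −1.217 ± 0.16 in adult NSC and −1.51 ± 0.16 in OPC (adjusted p = 0.000107 and 2.35e-05), while OPC and adult NSC overlapped (−0.30 ± 0.16, called without postnatal OPC 3 at −0.45). Col20a1 had means of 7.36 ± 3.21 CPM (postnatal NSC), 1.17 ± 0.420 CPM (adult NSC) and 3.48 ± 0.679 CPM (postnatal OPC) (SD, n = 4 each). It fell in adult NSC (log2 fold change −2.66 ± 0.33), and its fall in OPC (−1.08 ± 0.30) was not called after adjusting for Y-linked expression (−0.74). Col14a1 was at most 1.33 CPM in any library and fell in adult NSC (−3.83 ± 0.56) and in OPC (−2.21 ± 0.44). Col22a1, at most 2.35 CPM, fell in OPC (−2.53 ± 0.52) and was not called between the ages (−0.25 ± 0.45).

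**Figure D3:**
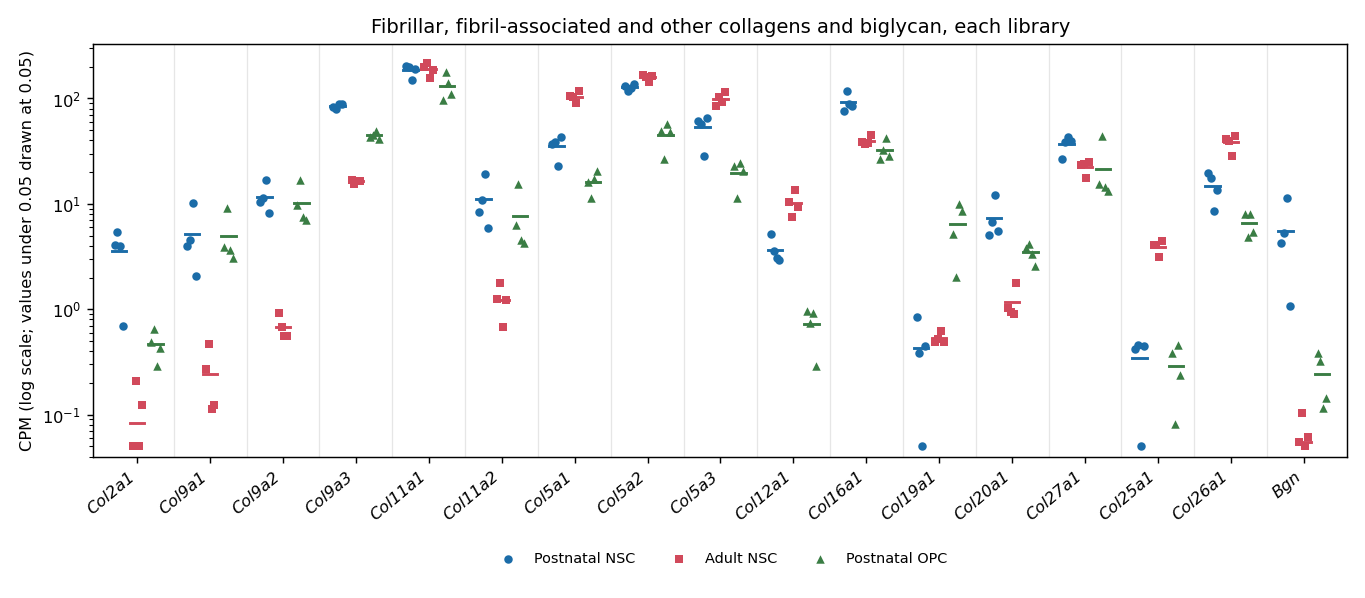
CPM (y axis, log scale) of 16 collagen genes and biglycan (x axis) in each of the 4 libraries of postnatal NSC (circles), adult NSC (squares) and postnatal OPC (triangles), with a line at the group mean; values under 0.05 CPM are drawn at 0.05. Adult NSC lies lowest for Col9a1, Col9a2, Col9a3 and Col11a2 and highest for Col5a1, Col12a1, Col25a1 and Col26a1, and OPC lies highest for Col19a1.

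The remaining collagens were few and mostly low. Col25a1, a transmembrane collagen first found in amyloid plaques, was at 0.422, 0.456, 0.0501 and 0.447 CPM (postnatal NSC), 4.09, 4.05, 3.15 and 4.44 CPM (adult NSC) and 0.387, 0.0815, 0.461 and 0.240 CPM (postnatal OPC). It rose in adult NSC (log2 fold change 3.48 ± 0.50, adjusted p = 0.000176) and did not differ between OPC and postnatal NSC by the test (−0.29 ± 0.57). Col26a1, a collagen with an EMI domain, was at 19.6, 17.6, 8.56 and 13.6 CPM (postnatal NSC), 41.7, 39.2, 28.6 and 44.5 CPM (adult NSC) and 8.08, 4.85, 8.07 and 5.38 CPM (postnatal OPC), in 3 separate ranges, with log2 fold changes of 1.38 ± 0.25 in adult NSC and −1.18 ± 0.26 in OPC (adjusted p = 0.00086 and 0.00297). Of the 6 collagen VI genes 2 were tested, and both were lower in OPC than in postnatal NSC (22.7% of all genes were). These were Col6a1 (−2.65 ± 0.51, and −3.42 without postnatal OPC 3) and Col6a3 (−3.26 ± 0.76, −2.63 without postnatal NSC 3 and −4.45 without postnatal OPC 2). Col6a3 was also lower in adult NSC (−3.82 ± 0.82, −3.20 without postnatal NSC 3 and −4.43 without adult NSC 2). The anchoring fibril gene Col7a1, at a mean of 6.08 ± 0.837 CPM (postnatal NSC) and 2.53 ± 0.984 CPM (adult NSC) (SD, n = 4 each), fell in adult NSC (−1.27 ± 0.32). Its fall in OPC (−0.85 ± 0.31) was lost in 9 of the 20 alternatives, among them leaving out adult NSC 2, postnatal NSC 1, 2 or 3, or postnatal OPC 1, 3 or 4. The transmembrane collagen gene Col23a1 fell in adult NSC (−1.61 ± 0.45), and was higher in OPC than in adult NSC (1.42 ± 0.46), a call lost without adult NSC 3 or 4 or postnatal OPC 1. Col28a1, at most 0.776 CPM in any library, was called in no comparison.

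Bgn (chromosome X, 73483602 to 73495933) encodes biglycan, a small proteoglycan that binds collagen fibrils. It was at 4.25, 5.28, 11.3 and 1.07 CPM (postnatal NSC), 0.0546, 0.104, 0 and 0.0617 CPM (adult NSC) and 0.387, 0.326, 0.115 and 0.144 CPM (postnatal OPC), and the adult and OPC libraries were all below the lowest postnatal one. Biglycan fell in adult NSC (log2 fold change −6.51 ± 0.85, adjusted p = 0.000107) and in OPC (log2 fold change −4.44 ± 0.68, adjusted p = 0.000281). Without postnatal NSC 3, the highest library, these were −5.88 and −3.81, and the value in OPC was −3.45 after adjusting for Y-linked expression. OPC against adult NSC (2.07 ± 1.10) was called only with that covariate (2.57) or without postnatal NSC 4 (2.07). Decorin (Dcn), the related proteoglycan, had 5 counts in all.

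All 6 collagen hydroxylase genes were tested. P4ha1, P4ha2 and P4ha3 encode the catalytic subunits of prolyl 4-hydroxylase, which makes the hydroxyproline that holds the triple helix together. P4ha1 was at 62.9, 61.96, 41.4 and 50.02 CPM (postnatal NSC), 49.5, 51.03, 63.5 and 51.4 CPM (adult NSC) and 31.9, 34.4, 27.4 and 23.7 CPM (postnatal OPC). P4ha2 was at 4.02, 4.25, 2.13 and 1.99 CPM (postnatal NSC), 2.46, 2.598, 4.73 and 2.78 CPM (adult NSC) and 0.0484, 0.856, 0.0576 and 0.0961 CPM (postnatal OPC). Both had every OPC library below every NSC library, with log2 fold changes against postnatal NSC of −0.88 ± 0.15 and −3.43 ± 0.66 (adjusted p = 0.000689 and 0.00124), and neither was called between the ages (−0.01 ± 0.15 and 0.02 ± 0.54). In OPC, P4ha2 was highest in postnatal OPC 2, and without that library its log2 fold change was −5.45 against postnatal NSC and −5.43 against adult NSC in place of −3.44 ± 0.67.

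P4ha3 did not follow the other subunits: it was low in adult NSC and not in OPC. It was at 3.8, 5.001, 17.96 and 0.572 CPM (postnatal NSC), 0, 0.104, 0.0563 and 0 CPM (adult NSC) and 11.5, 8.15, 3.34 and 2.69 CPM (postnatal OPC). In adult NSC it had 3 counts over all 4 libraries, against 1178 in postnatal NSC and 551 in OPC, so that its level was 158 times higher in postnatal NSC (exact 95% interval 54.05 to 769, counting error only) and 158 times higher in OPC (53.7 to 767). The fitted difference of adult from postnatal NSC was −7.20 ± 1.30, adjusted p = 0.000787, and −6.08 without postnatal NSC 3, the highest library, −8.18 without adult NSC 2 and −6.47 after adjusting for Y-linked expression. For OPC against adult NSC it was 7.12 ± 1.31, 8.09 without adult NSC 2 and 7.93 with the covariate. Postnatal NSC and OPC overlapped (−0.09 ± 0.75).

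Plod1, Plod2 and Plod3 encode lysyl hydroxylases, which prepare collagen for crosslinking and for the attachment of sugars, and each had its own pattern. Plod1 was at 107, 111, 123 and 77.6 CPM (postnatal NSC), 45.4, 45.4, 44.6 and 47.7 CPM (adult NSC) and 67.2, 55.9, 60.9 and 52.6 CPM (postnatal OPC), lowest in adult NSC (−1.19 ± 0.13, adjusted p = 2.68e-05) and lower in OPC than in postnatal NSC (−0.82 ± 0.13, adjusted p = 0.000265). OPC was above adult NSC by 0.37 ± 0.13, a call lost without adult NSC 1, 2 or 3 or postnatal OPC 1 or 3. Plod2, which hydroxylates the ends of fibrillar collagens, was at 46.1, 34.9, 33.2 and 53.95 CPM (postnatal NSC), 77.5, 81.5, 83.4 and 75.8 CPM (adult NSC) and 41.8, 32.2, 36.8 and 42.7 CPM (postnatal OPC). All adult libraries were above the rest (0.92 ± 0.15, adjusted p = 0.000373), while OPC and postnatal NSC overlapped (−0.13 ± 0.15). Plod3, which also adds glucose to galactosylhydroxylysine, was at 115, 102, 91.8 and 106 CPM (postnatal NSC), 83.6, 91.6, 91.02 and 102 CPM (adult NSC) and 53.3, 65.3, 49.5 and 49.4 CPM (postnatal OPC), lower in OPC than in any NSC library (−0.93 ± 0.11, adjusted p = 3.97e-05). The ages differed by −0.17 ± 0.11, called only without both libraries with few DNA replication transcripts (−0.23). Of the exon bases of Plod3 11.7% lie over an opposite-strand gene, Znhit1, and such overlaps cover 8.4% of Nid2, 6.4% of Plod2, 6.1% of Col9a3 and 5.6% of Col4a3. The strand setting of the counting is not given in the sources used here, so these counts may hold reads of the other gene.

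To set levels of different genes beside each other, CPM were divided by the length of each gene's exons in kb. On this scale the laminin chains summed to 68.9 ± 11.1 CPM per kb (postnatal NSC), 96.6 ± 5.53 (adult NSC) and 23.7 ± 4.15 (OPC) (SD, n = 4 each), in ranges that did not overlap. The gamma chains, nearly all Lamc1, made up 37.5% to 44.5% (postnatal NSC), 51.6% to 55.3% (adult NSC) and 53.3% to 67.6% (OPC) of that sum. Beta chains made up 27.8% to 41.4%, 19.8% to 20.9% and 17.6% to 25.4%. Among the alpha chains Lama5 led in NSC, with 75.5% to 80.4% of the alpha sum in postnatal and 75.4% to 81.1% in adult NSC, and had 37.7% to 50.2% in OPC, where Lama1 (27.4% to 35.9%) and Lama4 (12.1% to 29.5%) took larger shares. With the length of the longest transcript in place of all exons, the share of Lama5 was 70.8% to 76.9%, 67.5% to 75.9% and 29.3% to 44.01%, and that of Lama4 in OPC 21.2% to 45.0%.

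The collagens summed to 134.9 ± 9.40 CPM per kb in postnatal NSC, 143.8 ± 16.7 in adult NSC and 54.9 ± 5.60 in OPC. Fibril-associated collagens held 27.7% to 38.1% of the collagen sum in postnatal NSC and 39.6% to 42.5% in OPC, but 6.94% to 9.35% in adult NSC. Multiplexins, of which Col18a1 is the one tested, held 2.85% to 9.06% (postnatal NSC), 16.8% to 19.8% (adult NSC) and 1.74% to 2.73% (OPC). Collagen IV held 22.8% to 26.3% in postnatal NSC, 8.64% to 15.4% in OPC and 24.7% to 29.3% in adult NSC. Within collagen IV, Col4a5 and Col4a6 together made up 69.5% to 92.5% (postnatal NSC), 94.5% to 97.2% (adult NSC) and 71.2% to 83.2% (OPC). The member highest per kb was Agrn in postnatal NSC (65.3 ± 10.7 CPM per kb) and in OPC (46.1 ± 4.48), each time ahead of Lamc1 (27.9 ± 6.11 and 14.1 ± 1.45). In adult NSC the order was Lamc1 (51.9 ± 1.71), Agrn (31.4 ± 1.26), Col4a5 (28.2 ± 4.46) and Col18a1 (26.6 ± 4.32), where the last 3 lay within their spread of a neighbour. In OPC, Lamc1, Plod3 (12.0 ± 1.67), Col9a3 (11.6 ± 0.783) and Col11a1 (10.4 ± 2.88) likewise followed each other within their spread. The order after the leading gene of each group depended on the length used: with the longest transcript Col11a1 (17.3 ± 4.79) and Plod3 (16.6 ± 2.30) came before Lamc1 (15.3 ± 1.58) in OPC, Plod3 (31.6 ± 2.92) before Lamc1 (30.2 ± 6.63) in postnatal NSC, and Col18a1 (33.4 ± 5.42) before Col4a5 (28.9 ± 4.59) in adult NSC.

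**Figure D4:**
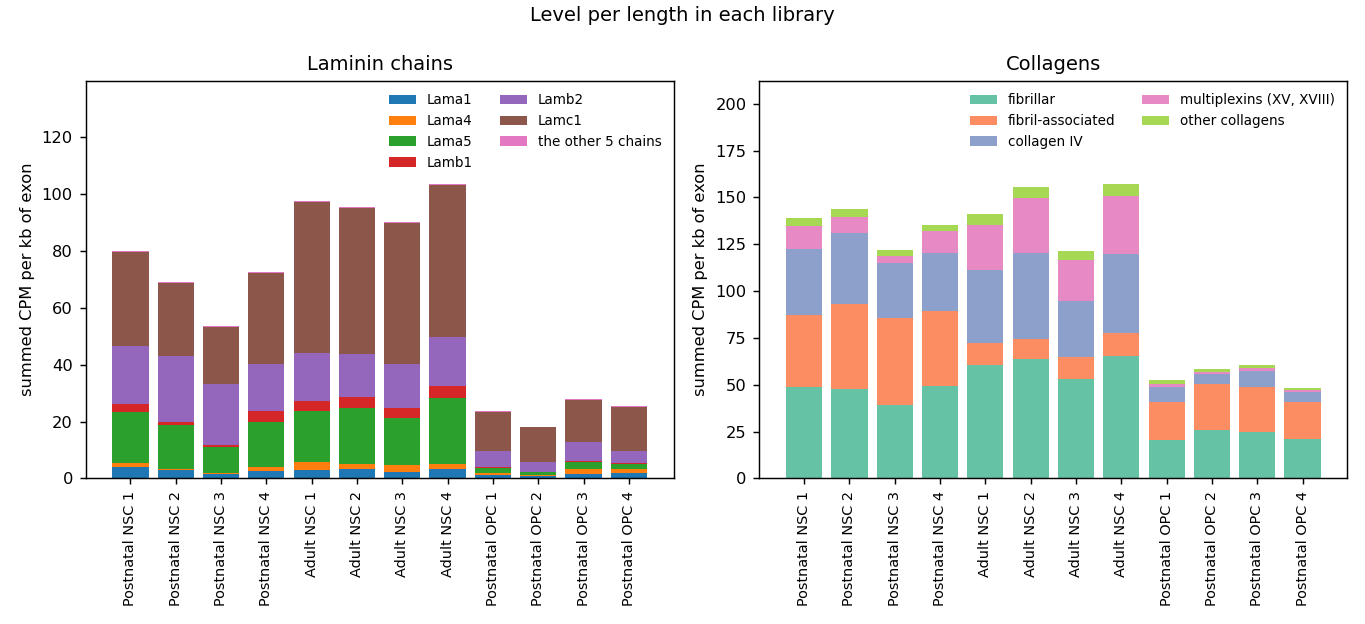
Summed CPM per kb of exon (y axis) of the laminin chains (left) and the collagens (right) in each of the 12 libraries (x axis), stacked by chain or class. The bars of postnatal OPC are the shortest in both panels, Lamc1 takes the largest part of each adult NSC and OPC bar on the left, and the fibril-associated part is smallest in adult NSC on the right.

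The receptors that bind this matrix were followed with a list of 20 genes, 17 of them tested. In OPC against postnatal NSC 7 were lower (22.7% of all genes were), 0 were higher and 10 were not called (median log2 fold change −0.69, and −0.01 over all genes). They included the syndecan gene Sdc4 (5.69 ± 1.83 against 42.2 ± 12.8 CPM, SD, n = 4 each), the laminin-binding integrin gene Itga7 (19.5 ± 5.83 against 142 ± 40.4 CPM), the hyaluronan receptor gene Cd44 (8.35 ± 3.77 against 49.95 ± 18.4 CPM) and the collagen-binding integrin gene Itga2 (5.11 ± 2.14 against 19.8 ± 9.47 CPM). Their log2 fold changes were −2.90 ± 0.28, −2.86 ± 0.27, −2.59 ± 0.36 and −1.95 ± 0.37. In adult against postnatal NSC 7 of the 17 were higher and 3 lower (median 0.42), where 25.2% of all genes were called higher and 27.9% lower. The collagen receptor gene Ddr2 rose by 2.02 ± 0.52, Cd44 by 1.30 ± 0.34, Itga6, another laminin-binding integrin gene, by 1.06 ± 0.21 and Sdc4 by 0.97 ± 0.25. The 3 that fell were the agrin receptor gene Lrp4 (−1.23 ± 0.27), the collagen receptor gene Ddr1 (−0.41 ± 0.10) and Bcam (−1.07 ± 0.20), which encodes a receptor for laminin alpha 5. In OPC against adult NSC 11 were lower (24.7% of all genes were) and 1, Bcam, was higher (26.3%), with the largest falls among genes of at least 10 CPM in Cd44 (−3.89 ± 0.38), Sdc4 (−3.87 ± 0.28), Itga7 (−2.86 ± 0.27) and Itga6 (−2.48 ± 0.21).

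Collagen folding, secretion and crosslinking genes (31 listed, 28 tested) were 20 lower and 0 higher in OPC than in postnatal NSC, with a median of −0.82. Of all genes tested 22.7% were lower and 22.4% higher. Adamts14, a protease that trims procollagen, was at 0.935 ± 0.632 against 40.7 ± 27.5 CPM (SD, n = 4 each). Log2 fold changes were −2.61 ± 0.53 for Fkbp10, a prolyl isomerase of the endoplasmic reticulum, −2.09 ± 0.19 for Serpinh1, the collagen chaperone HSP47, and −1.497 ± 0.16 for Sparc, a collagen-binding matrix protein. In adult NSC 9 of the 28 were higher and 3 lower than in postnatal NSC (median 0.26, with the same 25.2% and 27.9% over all genes). The prolyl 3-hydroxylase gene P3h2 (34.5 ± 4.33 against 5.42 ± 3.19 CPM), the lysyl oxidase gene Loxl2 (22.2 ± 1.94 against 4.87 ± 2.45 CPM), Fkbp14 (1.14 ± 0.16) and the retrieval receptor gene Kdelr3 (0.86 ± 0.29) had the largest rises among genes of at least 10 CPM, and Loxl3 (−1.96 ± 0.20), P3h3 (−0.86 ± 0.20) and Ppib (−0.17 ± 0.06) fell. In OPC against adult NSC 21 were lower and 1, Loxl3, was higher (24.7% and 26.3% of all genes). Adamts14 (−6.65 ± 0.93), Loxl2 (−4.07 ± 0.36), P3h2 (−3.89 ± 0.45) and Kdelr3 (−3.18 ± 0.32) had the largest falls at that level.

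Other basement membrane and matrix proteins (29 listed, 22 tested) were 16 lower and 0 higher in OPC than in postnatal NSC (median −1.31). Of all genes 22.7% were lower and 22.4% higher. Fbln2, which encodes the laminin- and perlecan-binding protein fibulin-2, was at 15.5 ± 12.6 against 709.5 ± 246 CPM. Papln, Fras1 and Emilin1 also fell (−2.27 ± 0.54, −2.24 ± 0.20 and −1.90 ± 0.28 on the log2 scale). In adult NSC 11 of the 22 were higher and 4 lower than in postnatal NSC (median 0.37, against −0.03 over all genes). The shares over all genes were 25.2% higher and 27.9% lower. The fibrillin genes Fbn2 (345 ± 34.4 against 75.05 ± 43.6 CPM) and Fbn1 (1.34 ± 0.18), the papilin gene Papln (1.352 ± 0.51) and Fras1 (1.223 ± 0.18), which encodes an epithelial basement membrane protein, rose most among genes of at least 10 CPM. Those that fell were Frem2 (−2.21 ± 0.34), a partner of Fras1 in the same complex, Smoc1 (−1.12 ± 0.15), Fbln5 (−2.13 ± 0.39) and Vwa1 (−1.03 ± 0.37). In OPC against adult NSC 16 were lower (24.7% of all genes were), with Fbln2 (−5.70 ± 0.66), Papln (−3.62 ± 0.56), Fras1 (−3.46 ± 0.21) and Fbn2 (−2.30 ± 0.58) in front at that level. The 2 that were higher (26.3% of all genes were) were Frem2 (1.62 ± 0.34) and Smoc1 (0.74 ± 0.15). All 3 lists thus had no member called higher in OPC than in postnatal NSC, where 22.4% of all genes were.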

How the data were processed

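RNA-seq gene counts of 12 libraries were analysed. Libraries were made with a stranded poly(A) kit, per the labels' protocols. The deposited values are raw counts per gene, made by the authors with STAR and featureCounts 1.22.2 on GRCm38, per the submitters' processing notes. The strand setting is not given in the sources used here, so overlapping genes on opposite strands may share counts. Symbols and exon lengths came from GENCODE M21, in which 55141 of 55401 identifiers matched and 62 of the 68 members had the same version.

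Genes were kept by filterByExpr (minimum count 10, minimum total 15), which left 16135, normalised by TMM and tested with edgeR 4.0.16 (R 4.3.3) by the quasi-likelihood test, 1 term per group over all 12 libraries, with Benjamini-Hochberg adjustment over all genes tested and a threshold of 0.05. SEs were the log2 fold change divided by the square root of F. The fit was tested on simulated data. A count of 0 was read as up to 3 counts, and such floors and the exact intervals cover counting error only. Alternatives were DESeq2 1.42.0, RLE size factors, no filter, a replicate block, the 2 groups alone, thinning to 16756231 counts, Y-linked expression as a covariate, leaving out both libraries with few DNA replication transcripts, and leaving out each library.

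Values per library are given for members of at least 20 CPM in their highest group, for the 5 largest rises and falls per comparison among called members of at least 2 CPM, for head-to-head collagen IV pairs and for tested laminin chains, except 1 member whose own values are not reported here. From each list up to 4 called genes per direction of at least 10 CPM are named; others named in the lists, and members named beyond this rule, were chosen after their values were seen. The members and lists were chosen with earlier results of these data known. Replicate libraries differed by more than sampling noise, and unequally between groups. The chi-square per degree of freedom of library pairs was 51.69 to 193.17 (postnatal NSC), 3.98 to 10.26 (adult NSC) and 6.44 to 92.97 (OPC). This measure also rises with the counts, which were highest in postnatal NSC. The main fit used 1 spread estimate per gene for all groups.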

Additional observations from a re-analysis of the deposited data

Results flagged for a closer look

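In 10 of 120 groups of 4 libraries of the members described by library, 1 library lay so far from the other 3 that its gap, divided by the group's range, passed Dixon's 95% critical value for 4 samples, which chance gives in about 1 in 20 groups. Postnatal OPC 2 supplied 5 of them. It was high for Col4a3 (1.47 CPM, the others 0.0480 to 0.231), P4ha2 (0.856 CPM, the others 0.0484 to 0.0961), Col9a1 (9.09 CPM, the others 3.07 to 3.87) and Col27a1 (43.6 CPM, the others 13.2 to 15.4), and low for Lamb1 (0.612 CPM, the others 2.55 to 2.88). Adult NSC 3 supplied 3: it was high for P4ha1 (63.5 CPM, the others 49.5 to 51.4) and P4ha2 (4.73 CPM, the others 2.46 to 2.78), and low for Col27a1 (17.8 CPM, the others 23.6 to 24.7). Postnatal NSC 2 was high for Col4a6 (76.7 CPM, the others 42.6 to 45.9), and postnatal NSC 3 was low for Col25a1 (0.0501 CPM, the others 0.422 to 0.456).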

How the results depend on the processing

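Over 20 alternatives the count of members in OPC against postnatal NSC was 1 higher in each and 36 to 43 lower, in adult against postnatal NSC 9 to 13 higher and 19 to 22 lower, and in OPC against adult NSC 8 to 14 higher and 28 to 32 lower. Members tested numbered 49 to 67 in the first 2 comparisons and 44 to 67 in the third, so these counts are not shares of a fixed number. Of all genes, 2843 to 4265 were called higher and 2856 to 4526 lower in the first comparison. The second had 3167 to 4596 and 3888 to 5221, and the third 3681 to 4681 and 3507 to 4448. Genes tested ran from 15383 to 30841. Of 107 called differences of single members, 99 kept their call under every alternative, 8 lost it under at least 1 and none changed sign. Of the 32 not called among the members described by library, 16 passed under at least 1 alternative and 12 changed sign under at least 1. Of 11 not called among the other members, 1 passed under at least 1 alternative (Col14a1 in OPC against adult NSC) and 4 changed sign. With Y-linked expression as a covariate the changed signs of the former against postnatal NSC were those of Col4a3 (0.05), Col9a1 (0.57), Col9a2 (0.16) and P4ha3 (1.45) in OPC and of P4ha2 (−0.08) in adult NSC. Without both libraries with few DNA replication transcripts they were P4ha3 in OPC (0.89) and Col11a1 (−0.07), Col19a1 (−0.07), Lama1 (−0.09) and P4ha2 (−0.14) in adult NSC. After thinning they were Col19a1 (−0.18) and P4ha2 (−0.15), and with no filter P4ha2 (−0.02), all in adult NSC. Leaving out each library gave OPC against postnatal NSC ranges of −0.64 to 0.02 for Col25a1, −0.59 to 0.48 for Col9a1, −0.57 to 0.04 for Col9a2, −0.17 to 0.49 for Lama4 and −0.55 to 1.03 for P4ha3. For adult against postnatal NSC they were −0.06 to 0.13 for Col11a1, −0.06 to 0.79 for Col19a1, −0.08 to 0.32 for Lama1, −0.12 to 0.04 for P4ha1 and −0.24 to 0.17 for P4ha2, and for OPC against adult NSC −0.64 to 0.12 for Col27a1. The cause of these changes was not tested.

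The labels do not say that equal replicate numbers mark a shared litter or day, and correlations of the deviations of same-numbered libraries ran from −0.363 to 0.325. A fit with the replicate number as a block changed 2 calls of single members, Col27a1 in OPC against postnatal NSC (−0.90, then called) and Col4a3 in OPC against adult NSC (2.77, then not called), and the signs of P4ha3 in OPC (0.60) and P4ha1 in adult NSC (0.01) against postnatal NSC. Members with few counts are limited by depth, since 1 library had as few as 16756231 counts.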
